A study of Drosophila melanogaster with 16 samples.

Results

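The mir-309 cluster is a run of miRNA hairpins known from the early Drosophila embryo, and its mature miRNAs were followed here in adult flies. Its members were the features of the deposited table of 19 to 25 nt reads named after the mir-309, mir-3, mir-286, mir-4, mir-5 and mir-6 hairpins, 1 arm for each. The rule found 5 miRNAs, miR-3-3p, miR-286-3p, miR-4-3p, miR-5-5p and miR-6-3p, of 209 miRNAs and 340 features in all. No second arm was listed for any of them, and miR-309 itself was not analysed here. Total small RNA was sequenced from whole flies, 40 per library, in 16 libraries that form 8 groups of 2 biological replicates. The dFOXO-null flies carry the deletion dfoxo{delta}94, which arose when a P element was mobilised and was crossed into wDah, and the wildtype flies are wDah, so all groups share the wDah background. Old flies of both genotypes were 31 days old, whereas the young flies of replicate 1 were collected at 5 days and those of replicate 2 at 6 days. Females and males of 1 genotype were housed together at 25°C and separated by sex at collection, so the females were mated.

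In the embryo, the cluster is among the first miRNA genes to be transcribed from the zygotic genome, and its miRNAs help to clear messenger RNAs that the mother loaded into the egg. A miRNA guides an Argonaute protein to messenger RNAs through its seed, the bases near its 5′ end, and miRNAs with the same seed can share targets. miR-6 carries the seed of the miR-2, miR-11 and miR-13 family, which recognises K box motifs and represses pro-apoptotic genes in the fly, and miR-4 carries that of miR-79, which recognises Brd box motifs. miR-286 shares its seed with miR-279 and miR-996, known from sensory neuron development, and miR-3 shares its seed with miR-309 and miR-318. In the BDGP6 annotation (dm6), the cluster holds 8 hairpins on the minus strand of chromosome arm 2R within 1059 bases, at chr2R:19660716-19661774. In the direction of transcription they are mir-309, mir-3, mir-286, mir-4, mir-5, mir-6-1, mir-6-2 and mir-6-3, with 42 to 73 bases between neighbours. All lie inside the long non-coding RNA gene lncRNA:CR44504 (chr2R:19659645-19661847, minus strand). miR-6-3p can come from any of the 3 mir-6 hairpins, which its reads cannot tell apart. The nearest protein-coding genes in the annotation are CG11018 (chr2R:19662436-19663738) and CG15125 (chr2R:19657573-19659599), both on the plus strand.

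Libraries held 596871 to 15259153 mapped reads, 3721873 to 15259153 in replicate 1 and 596871 to 5036091 in replicate 2. A level is given in RPM, reads per 1000000 mapped reads without spike-ins, and the precision of low levels is limited by the counts behind them. Whole flies were sequenced, so fewer cells of a type and less RNA per cell cannot be told apart. The loss of dFOXO cannot be checked in these small RNA reads, which do not measure its messenger RNA. The ovary list (miR-318-3p, miR-994-5p and miR-989-3p) summed to 12706 to 47669 RPM in the 8 female libraries and 106 to 1543 RPM in the 8 male libraries. The testis list of 9 miRNAs summed to 24.0 to 120 RPM in females and 353 to 822 RPM in males, so both lists followed the labelled sex in every library. Reads of transposons made up 9.58 to 23.5% of mapped reads in females and 0.430 to 1.75% in males.

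The cluster was higher in females than in males, and among females it was lowest in young dFOXO-null flies. The 5 miRNAs together reached 841 and 1957 RPM in old dFOXO-null females (replicates 1 and 2), against 3494 and 2325 RPM in old wildtype females. They reached 395 and 404 RPM in young dFOXO-null females, against 2985 and 4499.6 RPM in young wildtype females. In males the sum was 169 and 179 RPM in old dFOXO-null flies and 126 and 110 RPM in old wildtype flies, and 68.8 and 94.5 RPM in young dFOXO-null flies and 70.1 and 81.0 RPM in young wildtype flies. Young and old wildtype females headed the order of group means and overlapped each other. They were followed without overlap by old dFOXO-null females, young dFOXO-null females, old dFOXO-null males and old wildtype males, and last came the young males of both genotypes, which overlapped each other.

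**Figure D1:**
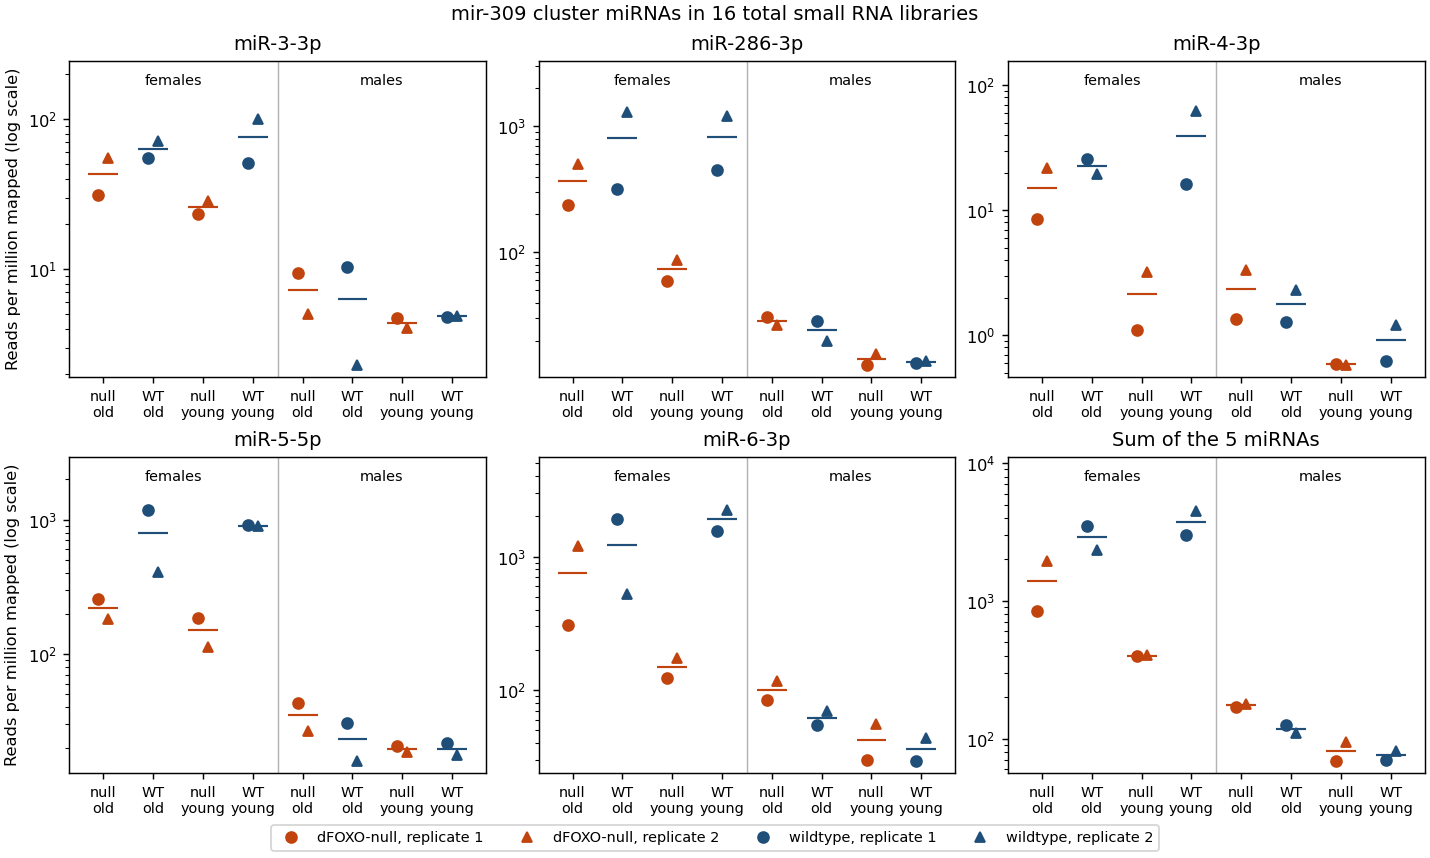
Level of each cluster miRNA and of their sum in every library, in RPM on a log axis, by genotype (null, dFOXO-null, WT, wildtype) and age, females left and males right of the grey line. Points are libraries, with circles for replicate 1 and triangles for replicate 2, and lines are means of 2. In young females every dFOXO-null point lies below both wildtype points in each panel, with sums of 395 and 404 RPM against 2985 and 4499.6 RPM.

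Genotype was compared first in young females, where the members were lower in dFOXO-null flies. miR-6-3p, the member with the most reads in young wildtype females, had 124 and 173 RPM in young dFOXO-null females, against 1560 and 2238 RPM in young wildtype females. miR-286-3p had 59.9 and 87.2 RPM in dFOXO-null females, against 449 and 1209 RPM in wildtype females. miR-5-5p had 187 and 113 RPM in dFOXO-null females, against 908 and 890 RPM in wildtype females. These are large gaps beside the distance between replicates, although miR-286-3p differed by a wide margin between the wildtype libraries themselves. miR-4-3p had 1.09 and 3.18 RPM in dFOXO-null females, against 16.2 and 61.9 RPM in wildtype females, on 5 and 16 reads against 146 and 211 reads. miR-3-3p had 23.4 and 28.4 RPM in dFOXO-null females, against 51.3 and 100.97 RPM in wildtype females. All 5 miRNAs were lower in both dFOXO-null libraries than in both wildtype libraries, as were 31.8% of the 330 features tested. By ratio of means, wildtype exceeded dFOXO-null 18.3-fold for miR-4-3p, 12.8-fold for miR-6-3p, 11.3-fold for miR-286-3p, 6.01-fold for miR-5-5p and 2.94-fold for miR-3-3p, and 9.36-fold for the sum.

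By edgeR's quasi-likelihood test over all 330 features, with Benjamini-Hochberg adjustment, 4 of the 5 fell in young dFOXO-null females, where 2.42% of all features and 3.85% of the 208 miRNAs tested did. The log2 fold change was -4.17 ± 0.86 (SE) for miR-4-3p, with an edgeR adjusted p of 0.0169. It was -2.59 ± 0.63 for miR-5-5p, with an edgeR adjusted p of 0.0378. miR-286-3p (-3.49 ± 0.75) and miR-6-3p (-3.68 ± 0.79) shared an edgeR adjusted p of 0.0179. miR-3-3p had a log2 fold change of -1.55 ± 0.65 and an edgeR adjusted p of 0.529, so it did not pass. The 4 cluster miRNAs made up 4 of the 8 features called lower in all. The other 4, named after their values were seen, were miR-9370-5p, miR-4969-5p and both arms of miR-1002. The median log2 fold change was -3.49 over the members, -0.33 over all features and -0.20 over the miRNAs tested.

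The calls did not all hold when 1 library was left out. Such a fit leaves 1 library in a group and has less power, so lost calls cannot show that 1 library carries the difference. Without dFOXO-null replicate 1, dFOXO-null replicate 2 or wildtype replicate 2, 0 of the 5 passed, and without wildtype replicate 1, 3 passed. All 5 remained lower in each of these fits, in which the lone library of a group is assumed to vary like the other groups. With spike-in reads as library size 0 passed, with log2 fold changes of -3.42 to -1.002, and 0 features were called in all. Libraries held 91 to 1970 spike-in reads. In young females these stood at 19.9 and 32.0 RPM in dFOXO-null flies and 17.5 and 84.2 RPM in wildtype flies, so this scaling carries that gap between replicates. miR-5-5p did not pass with TMM normalization, at an edgeR adjusted p of 0.198, and DESeq2 called 4 of the 5. Of all features, in either direction, TMM normalization called 11 and DESeq2 14, against 9 in the main fit.

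**Figure D2:**
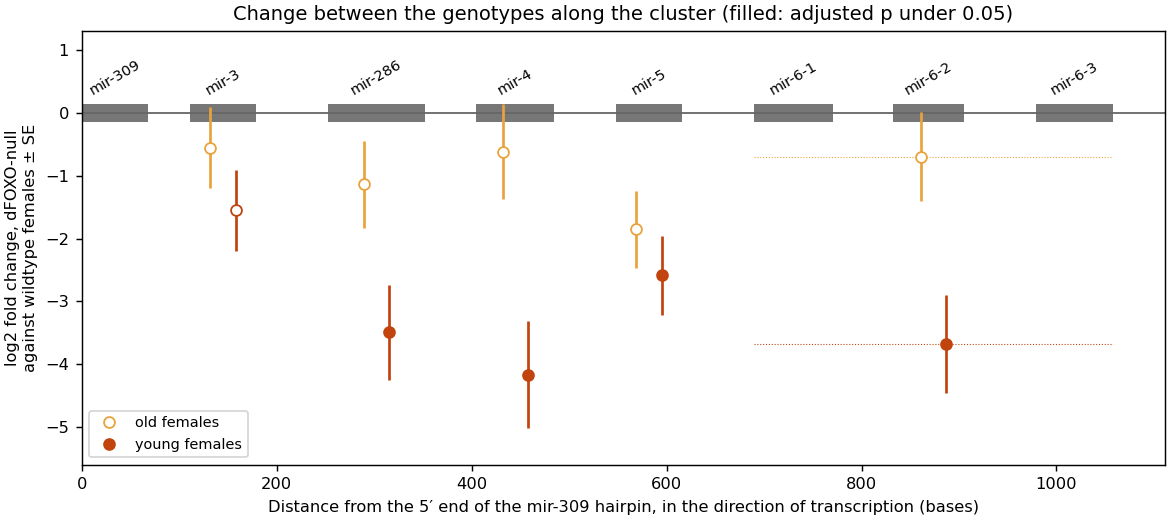
log2 fold change of dFOXO-null against wildtype females (± SE) along the cluster, against distance in bases from the 5′ end of the mir-309 hairpin. Grey bars are hairpins, points are mature miRNAs (old females pale, young females dark, filled where the adjusted p is under 0.05), and the dotted lines mark the 3 hairpins that share miR-6-3p. In young females the 4 filled points lie between -4.17 and -2.59, and in old females no point is filled.

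The changes in young females did not run in order along the cluster. The miRNA of mir-3, the first hairpin with a listed miRNA, had the smallest difference (-1.55). miR-4-3p, from the hairpin 405 to 485 bases from the start of mir-309, had the largest (-4.17). Its neighbours, miR-286-3p on one side and miR-5-5p on the other, had -3.49 and -2.59. The spread among the 5 was not tested.

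In old females the genotypes were closer, and none of the 5 passed the test. miR-6-3p had 308.1 and 1197 RPM in old dFOXO-null females, against 1913 and 522 RPM in old wildtype females, so the replicates of each genotype lay farther apart than the genotype means. miR-286-3p had 237 and 501 RPM in dFOXO-null females, against 320 and 1307 RPM in wildtype females. miR-5-5p had 256 and 182 RPM in dFOXO-null females, against 1179 and 405 RPM in wildtype females. It was the single member without overlap between the genotypes, at a background of 27.6% of features. miR-3-3p had 31.4 and 55.3 RPM in dFOXO-null females, against 55.2 and 72.0 RPM in wildtype females. miR-4-3p had 8.52 and 21.7 RPM in dFOXO-null females, against 25.6 and 19.4 RPM in wildtype females. edgeR called 0 of the 5 and 0% of all features lower, and 1 of the 5 had an unadjusted p under 0.05. That was miR-5-5p, with a log2 fold change of -1.86 ± 0.61 and an edgeR adjusted p of 0.210. Of all 330 features, 39 had an unadjusted p under 0.05 in old females, in either direction. DESeq2 also called 0 of the 5. The other 4 log2 fold changes ran from -1.14 to -0.56, and the median over all features was -0.52. Without wildtype replicate 2 that of miR-286-3p was 0.20, and without wildtype replicate 1 that of miR-6-3p was 0.53, so the directions of these 2 miRNAs rest on single libraries.

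Whether the genotype difference itself changed with age was tested as an interaction. The genotype effect in young minus that in old females was -3.55 ± 1.11 for miR-4-3p, -2.98 ± 1.02 for miR-6-3p and -2.36 ± 0.98 for miR-286-3p on the log2 scale. It was -0.997 ± 0.91 for miR-3-3p and -0.73 ± 0.84 for miR-5-5p. edgeR called 0 of the 5 and 0% of features lower at adjusted p-values of 0.435 to 1.00. An unadjusted p under 0.05 was found for 3 of the 5, beside 14 of all 330 features in either direction. DESeq2 called 0 of the 5, with a lowest adjusted p of 0.0655. The call in young females and its absence in old females are therefore not shown to differ between the ages.

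Males carried little of the cluster in either genotype. miR-6-3p had 84.6 and 117 RPM in old dFOXO-null males, against 54.9 and 69.5 RPM in old wildtype males. It had 29.8 and 55.7 RPM in young dFOXO-null males, against 29.6 and 43.5 RPM in young wildtype males. Over all 8 male libraries miR-286-3p ran from 12.8 to 30.6 RPM and miR-5-5p from 16.03 to 43.0 RPM. miR-3-3p ran from 2.29 to 10.3 RPM, and miR-4-3p had 1 to 11 reads per library. In old males the log2 fold changes of dFOXO-null against wildtype ran from 0.17 to 0.70, and in young males from -0.53 to 0.22. miR-3-3p and miR-4-3p, 2 of the 5, were lower in both young dFOXO-null male libraries than in both wildtype ones, at a background of 9.70%, and in old males 0 of the 5 were, at a background of 8.48%. edgeR called 0 of the 5 in young males, where it called 0.606% of features lower, and 0 of the 5 in old males, where it called 0%. In neither age did any of the 5 have an unadjusted p under 0.05, and DESeq2 called 0 in both.

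The genotype effect in young females minus that in young males was -3.89 ± 1.04 for miR-6-3p, -3.63 ± 1.28 for miR-4-3p, -3.56 ± 1.01 for miR-286-3p, -2.59 ± 0.86 for miR-5-5p and -1.43 ± 0.94 for miR-3-3p. By edgeR's adjusted p, from 0.547 to 1.00, 0 of the 5 passed, beside 0% of all features. An unadjusted p under 0.05 was found for 4 of the 5, beside 14 of all 330 features in either direction. DESeq2 called 1 of the 5 and 1 feature in all, and edgeR fitted to the compared libraries alone called 2 of the 5. The same contrast is the sex difference in young dFOXO-null flies minus that in young wildtype flies.

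**Figure D3:**
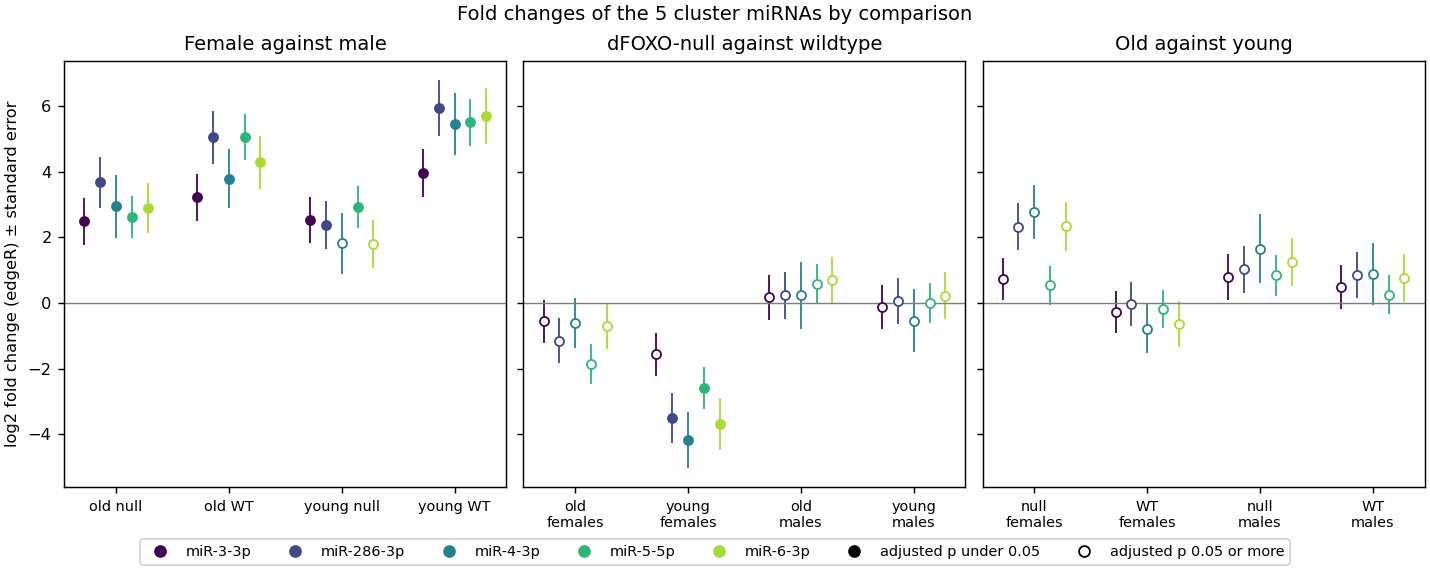
log2 fold changes of the 5 cluster miRNAs from edgeR (points, ± SE) in 4 comparisons of sex, 4 of genotype and 4 of age. Filled points have an adjusted p under 0.05 over 330 features. The sex points all lie above 0, the filled genotype points are confined to young females (-4.17 to -2.59), and no age point is filled.

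Females had more of the cluster than males at both ages and in both genotypes. In old dFOXO-null flies the summed level was 8.04-fold that of males, and in old wildtype flies 24.7-fold. In young dFOXO-null flies it was 4.89-fold that of males, and in young wildtype flies 49.6-fold. All 5 miRNAs were higher in both female libraries than in both male libraries in each of the 4 comparisons. That holds for 47.3% of all features in old dFOXO-null flies, 46.4% in old wildtype, 53.6% in young dFOXO-null and 56.7% in young wildtype flies.

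In old dFOXO-null flies edgeR called 5 of 5 higher in females, beside 41.2% of all features and 12.0% of miRNAs. The log2 fold changes ran from 2.49 (miR-3-3p, edgeR adjusted p 0.00914) to 3.68 (miR-286-3p, edgeR adjusted p 0.00125). Without dFOXO-null old female replicate 2, 2 of the 5 passed. miR-4-3p did not pass without old male replicate 1 (edgeR adjusted p 0.198), nor miR-3-3p without old male replicate 2 (edgeR adjusted p 0.0567). DESeq2 called 1 of the 5, and so did edgeR fitted to these libraries alone. Of all features, in either direction, DESeq2 called 219, against 168 in the main fit. In old wildtype flies 5 of 5 were called, beside 41.8% of features and 11.5% of miRNAs. They ran from 3.22 for miR-3-3p to 5.07 for miR-5-5p on the log2 scale.

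In young dFOXO-null flies 3 of 5 were called higher in females, beside 40.3% of features and 9.62% of miRNAs. They were miR-5-5p at 2.92 ± 0.64, miR-3-3p at 2.54 ± 0.69 and miR-286-3p at 2.37 ± 0.73 on the log2 scale. miR-4-3p (1.83 ± 0.93, edgeR adjusted p 0.131) and miR-6-3p (1.81 ± 0.73, edgeR adjusted p 0.0582) did not pass. miR-286-3p did not pass without female replicate 2, male replicate 1 or male replicate 2, with edgeR adjusted p-values of 0.0615 to 0.103. With a replicate block, the replicate number as a term in the fit, miR-6-3p passed, with an edgeR adjusted p of 0.0302. 0 of the 5 passed with TMM normalization, with spike-in reads as library size or by DESeq2. Of all features, in either direction, these called 203, 105 and 218, against 153 in the main fit. In young wildtype flies 5 of 5 were called, beside 43.6% of features and 14.4% of miRNAs. miR-286-3p had the largest log2 fold change (5.94 ± 0.85, edgeR adjusted p 3.5e-05) and miR-3-3p the smallest (3.97 ± 0.73, edgeR adjusted p 0.000259).

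Transposon reads took a larger share of female libraries, as given above, and their part in the sex comparisons was not tested beyond a change of library size. The median log2 fold change of all features was 0.84 in old dFOXO-null, 0.68 in old wildtype, 0.96 in young dFOXO-null and 1.12 in young wildtype flies, and that of the miRNAs tested ran from -0.33 to -0.06. The median over the members in young dFOXO-null flies was 2.37 with all mapped reads as library size, 2.57 with miRNA reads, 0.94 with TMM normalization and 1.07 by DESeq2. In young wildtype flies it was 5.51 with all mapped reads, 5.76 with miRNA reads, 3.82 with TMM normalization and 4.06 by DESeq2.

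Age was compared within each sex and genotype, and edgeR called 0 of the 5 and 0% of features in all 4 comparisons. In dFOXO-null females the 4 miRNAs other than miR-5-5p were higher in both old libraries than in both young ones, at a background of 18.2% of features. The old over young ratio of means was 7.08 for miR-4-3p, 5.07 for miR-6-3p, 5.03 for miR-286-3p, 1.68 for miR-3-3p and 1.46 for miR-5-5p. On the log2 scale the differences were 2.77 ± 0.83 for miR-4-3p, 2.34 ± 0.74 for miR-6-3p and 2.33 ± 0.72 for miR-286-3p, and these 3 had an unadjusted p under 0.05. All 3 had an edgeR adjusted p of 0.226. Of all 330 features, 29 had an unadjusted p under 0.05 in this comparison, in either direction. DESeq2 called 0 of the 5, with a lowest adjusted p of 0.0802. The median over all features was 0.05. With spike-in reads as library size, miR-3-3p, miR-5-5p and miR-6-3p were lower in old dFOXO-null females, at log2 fold changes of -1.21, -0.94 and -0.20. Under that scaling the median over all features was -1.91. Spike-ins stood at 40.3 to 1504 RPM in old libraries and 17.5 to 163 RPM in young ones, and their part in the age comparisons was not tested.

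In wildtype females all 5 overlapped between the ages, and log2 fold changes ran from -0.78 to -0.03. The 2 old wildtype libraries went opposite ways. Set against the same-numbered young library, miR-6-3p was 1.23-fold in replicate 1 and 0.233-fold in replicate 2, and miR-286-3p was 0.714-fold in replicate 1 and 1.08-fold in replicate 2. In dFOXO-null males all 5 were higher in both old libraries, at a background of 34.8%, and in wildtype males 3 were, at a background of 52.1%. Their log2 fold changes ran from 0.79 to 1.66 in dFOXO-null males and from 0.26 to 0.89 in wildtype males, where the median over all features was 0.83 and 0.84. Scaled to spike-in reads, all 5 turned, to -2.52 to -1.89 in dFOXO-null males and -2.52 to -1.90 in wildtype males. The median over all features was then -2.75 and -2.22, and 0 of the 5 passed. With TMM normalization 2 of the 5 turned in the males of each genotype. In wildtype females and in the males of both genotypes, 0 of the 5 had an unadjusted p under 0.05 and DESeq2 called 0. The age effect in wildtype females minus that in wildtype males ran from -1.66 to -0.44, and 0 of the 5 passed, with or without adjustment and by DESeq2, beside 0% of features.

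The 5 miRNAs did not keep fixed proportions. miR-6-3p made up 22.4 to 61.1% of cluster reads in the female libraries and 42.3 to 65.4% in the male libraries. miR-286-3p made up 9.17 to 56.2% in females and 14.95 to 22.9% in males. Both ends of the female range of miR-286-3p came from old wildtype females, with 9.17% in replicate 1 and 56.2% in replicate 2, and replicate 2 also gave the lowest share of miR-6-3p. miR-5-5p made up 9.30 to 47.2% in females, and its share was higher in replicate 1 than in replicate 2 in all 8 groups. In young females it was 47.2 and 27.9% in dFOXO-null flies, against 30.4 and 19.8% in wildtype flies. miR-3-3p made up 1.58 to 7.03% in females and 2.08 to 8.20% in males, and in young females its share was 5.91 and 7.03% in dFOXO-null flies, against 1.72 and 2.24% in wildtype flies. miR-4-3p never exceeded 1.38% in females.

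Across the 16 libraries the log2 levels of the 10 pairs of members correlated with Pearson's r of 0.86 to 0.96. These libraries include both sexes. Across the 8 female libraries r ran from 0.59, for miR-286-3p with miR-5-5p, to 0.95, for miR-3-3p with miR-286-3p. These values describe libraries that share depth and groups.

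The length of the reads also separated the miRNAs. Over pooled reads, 21 nt reads made up 82.6% of miR-4-3p, 36.3% of miR-3-3p, 12.9% of miR-6-3p and 1.87% of miR-5-5p in females. In males they made up 63.4% of miR-4-3p, 44.3% of miR-3-3p, 28.8% of miR-6-3p and 4.18% of miR-5-5p. miR-6-3p had 7.51 to 19.8% of its reads at 21 nt in the 8 female libraries. In the 5 male libraries with at least 100 reads it had 24.5 to 31.4%, so the sexes did not overlap. How many other miRNAs separate by sex in this share was not counted, so the gap is not shown to be particular to miR-6-3p. For miR-4-3p no male library reached 100 reads. miR-286-3p is not in the table of 21 nt reads used here.

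The miRNAs most like the cluster were found by the Pearson correlation of their log2 level with the mean log2 level of the members, among 128 other miRNAs with a mean of at least 100 reads. Over the 16 libraries they were miR-312-3p (0.90), miR-318-3p (0.88), miR-994-3p (0.85), miR-311-3p (0.83) and miR-994-5p (0.83). Over the 8 female libraries they were miR-311-3p (0.80), miR-1010-3p (0.79), miR-984-5p (0.77), miR-125-3p (0.73) and miR-927-5p (0.65). miR-311 and miR-312 are themselves products of 1 miRNA cluster of the fly.

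The 3 ovary miRNAs followed the cluster between the sexes but not among females. miR-318 and miR-994 are neighbours on chromosome arm 3R (chr3R:10408302-10408369 and chr3R:10408137-10408227) and, with miR-989, are known as abundant ovary miRNAs. All 3 were called higher in females in each of the 4 sex comparisons, with median log2 fold changes of 4.78 to 8.08. Among the 8 female libraries their correlation with the cluster was 0.06 for miR-318-3p, -0.52 for miR-994-5p and -0.96 for miR-989-3p, the lowest of the 128. miR-989-3p had 17372 and 14804 RPM in young dFOXO-null females, against 5852 and 5164 RPM in young wildtype females. That is a log2 fold change of 1.55 ± 0.78 with an edgeR adjusted p of 0.803, opposite in sign to the cluster. miR-318-3p was at -0.60 and miR-994-5p at 0.14, and 0 of the 3 passed or had an unadjusted p under 0.05. The summed ovary list stood at 47669 and 40150 RPM in young dFOXO-null females, against 39385 and 38387 RPM in young wildtype females. That sum includes the higher miR-989-3p. In the same libraries miR-318-3p had 12063 and 14955 RPM in dFOXO-null females, against 14647 and 26208 RPM in wildtype females. miR-994-5p had 18234 and 10392 RPM in dFOXO-null females, against 18887 and 7015 RPM in wildtype females. In old females the summed list stood at 27394 and 17127 RPM in dFOXO-null flies, against 12706 and 20374 RPM in wildtype flies. There 0 of the 3 passed.

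**Figure D4:**
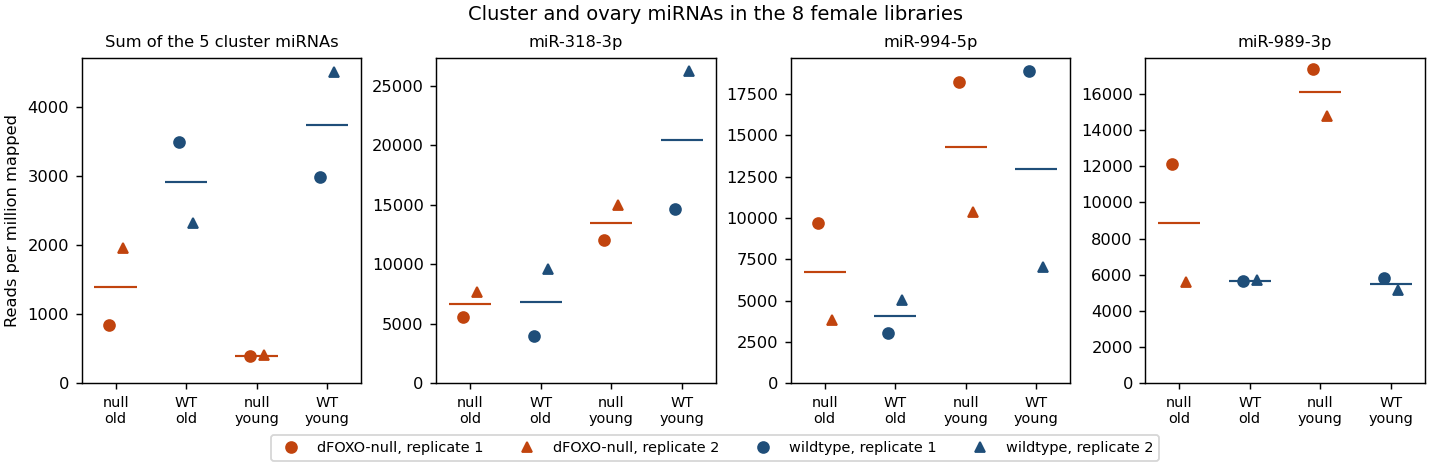
Levels in the 8 female libraries of the summed cluster and of the 3 ovary miRNAs, in RPM on linear axes that start at 0 and differ between panels. Points are libraries and lines are means of 2, with dFOXO-null (null) left of wildtype (WT) at each age. In young females the cluster is lower in dFOXO-null flies (395 and 404 against 2985 and 4499.6 RPM), and miR-989-3p is higher (17372 and 14804 against 5852 and 5164 RPM). The genotypes overlap for miR-318-3p (12063 and 14955 against 14647 and 26208 RPM) and for miR-994-5p (18234 and 10392 against 18887 and 7015 RPM). In young females 0 of the 3 ovary miRNAs passed the edgeR test between the genotypes.

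The remaining lists give the levels of other tissues in the same flies. Between the genotypes in young females, 0 of 9 testis miRNAs and 0 of 2 muscle miRNAs (miR-1-3p and miR-133-3p) passed the edgeR test. Of the nervous system list (miR-124-3p), 0 of 1 passed. An unadjusted p under 0.05 was found for 2 of the 9 testis miRNAs, miR-976-3p and miR-984-5p. Of all 330 features, 23 had one in this comparison, in either direction. The testis list had a median log2 fold change of -1.55, beside -0.20 over the miRNAs tested. It summed to 49.8 and 32.6 RPM in young dFOXO-null females, against 120 and 53.7 RPM in young wildtype females, and to 68.8 and 69.3 RPM in old dFOXO-null females, against 28.8 and 24.0 RPM in old wildtype females. It was thus lower with the cluster in young dFOXO-null females, and its part in that result was not tested. miR-976-3p had 6 and 3 reads in young dFOXO-null females, against 113 and 3 reads in young wildtype females, so its difference came from wildtype replicate 1. miR-984-5p had 33 and 50 reads in young dFOXO-null females, against 178 and 62 reads in young wildtype females. The arms of miR-1002, called lower in the same comparison, are not on the list, and in young wildtype flies both were called higher in females, at log2 fold changes of 7.35 (miR-1002-3p) and 6.31 (miR-1002-5p). The muscle list summed to 13018 to 164892 RPM in females and 83100 to 217694 RPM in males, and miR-124-3p had 12.7 to 440 RPM in females and 33.2 to 253 RPM in males.

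None of the seed relatives looked at, taken from textbook families, passed the edgeR test between the genotypes in young females, and none had an unadjusted p under 0.05. The 7 relatives of miR-6-3p (miR-2a-3p, miR-2b-3p, miR-2c-3p, miR-11-3p, miR-13a-3p, miR-13b-3p and miR-308-3p) summed to 7029 to 12191 RPM in females and 6570 to 14613 RPM in males. The 2 relatives of miR-286-3p, miR-279-3p and miR-996-3p, summed to 2846 to 11681 RPM in females and 2686 to 7509 RPM in males. In young females 0 of the 7 passed between the genotypes, with a median log2 fold change of -0.12, and 0 of the 2, with 0.18. The 2 relatives of miR-4-3p, miR-79-3p and miR-9a-3p, had 8.75 to 45.5 RPM together in females and 5.80 to 18.3 RPM in males, and 0 of the 2 passed, with a median of -0.65. Between the sexes 0 to 2 of the 7 relatives of miR-6-3p were called higher in females, and 0 of the 2 relatives of miR-286-3p and 0 of the 2 of miR-4-3p were called in any of the 4 comparisons. miR-318-3p, the relative of miR-3-3p, was the exception, called higher in females in all 4.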

How the data were processed

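Small RNA of 19 to 35 nt was cut from gels, and spike-in RNAs were added to the eluate. The authors trimmed reads with Trim Galore, kept those of 19 to 25 nt, mapped them with bowtie, allowing 1 mismatch and reporting all valid alignments, to spike-ins, transposons and miRNAs, and counted them with featureCounts. Per the submitters' notes the genome build is dm6. The deposited counts are whole reads without normalization. The authors' percent values are counts over mapped reads without spike-ins, and recomputed percents differed by at most 0.00332 in relative terms. Tables of reads on dm6 were not used, and 0 value columns lacked a sample.

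Counts of features with a mean of at least 5 (330 of 340, without 8 spike-ins) were fitted in edgeR 4.0.16 (R 4.3.3, glmQLFit and glmQLFTest) with 1 coefficient for each of 8 groups and mapped reads as library size, without further scaling. Benjamini-Hochberg adjustment ran over all 330, with a threshold of 0.05. Each edgeR SE was derived as the absolute log2 fold change over the square root of the test's F statistic, not taken from the fit. The fit was run on simulated independent libraries, where only the mean log2 fold changes had to come close to those set. The rates of calls were not held to a limit. With 2 libraries a group an exact permutation test cannot reach that threshold. Reads carry no molecular identifiers.

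The members were 1 arm for each hairpin named by the rule, with the 5 most similar miRNAs and the ovary, testis, muscle and nervous system lists beside them. Relatives by seed were taken from textbook families after the files were seen, since no table of sequences was at hand. Members and lists were chosen with earlier results of these data known. The design had counted 4 members, and the rule gave 5.

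Young and old flies of 1 genotype and replicate number were siblings per the labels. The deviations of such libraries from their group means correlated at 0.18 to 0.34 within a sex, at 0.36 to 0.62 between the sexes at 1 age, and at -0.04 to 0.64 between the genotypes. Alternatives were TMM normalization, spike-in or miRNA reads as library size, no filter, DESeq2 1.42.0, adjustment over miRNAs, 21 nt reads, the compared libraries alone, 2 forms of a replicate block, and each replicate left out.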

Additional observations from a re-analysis of the deposited data

How the results depend on the processing

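Of the counts of cluster miRNAs called, 226 were unchanged or within 1.5 times the reported count under the alternatives, 12 were lower and 2 higher. The 226 include comparisons with a reported count of 0, where the count stayed at 0. All 12 lower counts fell in comparisons with a reported call, since a count of 0 cannot fall. The 226 therefore say little about how stable the calls were. In young dFOXO-null flies 0 of 5, in place of 3, were called higher in females with TMM normalization, spike-in reads as library size or DESeq2, and 0 of 4 with 21 nt reads. Features called there in either direction numbered 203 with TMM normalization, 105 with spike-in reads and 218 by DESeq2, in place of 153. In old dFOXO-null flies 1 was called by DESeq2 or with the compared libraries alone, and 3 of 4 with 21 nt reads, in place of 5. DESeq2 called 219 features in all there, in place of 168. Between the genotypes in young females, 0 were called with spike-in reads as library size, in place of 4, and 0 features in all, in place of 9. The genotype effect in young females minus young males was called for 1 by DESeq2 and 2 with the compared libraries alone, in place of 0. Leaving out 1 replicate gave 0 to 3 calls for genotype in young females, and 2 to 5 for sex in old dFOXO-null flies. Scaling moved the median log2 fold change of all features, for sex in young wildtype flies to -0.54 with TMM normalization and -0.30 with DESeq2, in place of 1.12, while that of the cluster was 3.82 and 4.06, in place of 5.51.

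Over all 16 comparisons and their alternatives 62 of 1183 single values turned in direction, none of which had passed the test. In the 9 comparisons given miRNA by miRNA, 8 of 661 turned. Spike-in scaling also moved the median over all features, to -1.91 for age in dFOXO-null females and 0.79 for genotype in old females. Scaled to spike-in reads, the age difference in dFOXO-null females was -1.21 for miR-3-3p, -0.94 for miR-5-5p and -0.20 for miR-6-3p. The genotype difference in old females was then 0.59 for miR-286-3p and 0.46 for miR-3-3p. That of miR-6-3p in old females was 0.25 with 21 nt reads, and with 1 replicate left out it ran from -1.98 to 0.53 (without wildtype replicate 1), and that of miR-286-3p from -1.82 to 0.20 (without wildtype replicate 2). With the replicate block, 4 cluster miRNAs, in place of 3, were called for sex in young dFOXO-null flies, and no other call changed. In the other 7, spike-in scaling turned the age difference of 5 of 5 in the males of both genotypes, and the genotype difference of 4 of 5 in old and 2 of 5 in young males. Where a count or direction moved, the cause was not tested. Depth limits miR-4-3p most, with 1 to 11 reads in each male library.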
